A study of Mus musculus with 30 samples.

Results

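A set of 9 genes of the interferon response and of antigen presentation was followed in brain microvessels of mice deficient in pericytes and of their controls. The genes are Irf7, Ifit1, Ifit3, Ifitm3, Bst2, Gbp2, B2m, Tap1 and Cd74. They were chosen by name and function and not by a cut on measured values, but with earlier results of these data known. Each gene is represented by the probe sets that the array annotation pairs with it alone, and the probe set with the highest mean signal over all arrays is given first. All 9 are on the array, among 18194 genes covered, and all 9 passed the filter on low signals that left 11243 genes for testing.

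Microvascular fragments were isolated from mouse brain, and their RNA, about 100 ng a sample, was amplified and hybridised to 30 Affymetrix arrays. The ret mutants are pdgfbret/ret mice (4 arrays, 10, 7, 7 and 7 months old in replicate order). They make only PDGF-B without the retention motif that holds it near the endothelium. The ret controls are pdgfbret/+ mice that also carry a ret copy (4 arrays, 8, 8, 8 and 10 months old). Both are on C57/B6/J, and their labels name no brain region. The R26P mutants are Tie2Cre, R26P+/0, pdgfb-/- mice, in which a human PDGF-B transgene in the Rosa 26 locus, switched on by Cre in endothelium and, as Tie2Cre is known to do, in part of the blood lineage, replaces the mouse gene (4 animals, cerebellum and cerebrum each on its own array). The R26P controls are R26P+/0, pdgfb+/+ mice, which carry the silent transgene copy without Cre (4 animals, both regions). These lines are on a mixed C57/SV129 background, and their sample titles give an age of 1 year where another label of the same samples gives 2 months. Wild-type arrays come from Notch3+/+ C57/B6/J mice of 2 months (3 animals, both regions). Samples are labelled as biological replicates.

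Interferons are secreted alarm proteins that act through receptors and STAT factors. Type I interferons switch on antiviral genes through the paired interferon regulatory factor element, and interferon gamma acts mainly through the gamma-activated site, with much overlap between both programmes. Antigen presentation follows: class I molecules show peptides from inside the cell on nearly every cell type, and class II molecules show peptides from outside, mainly on professional antigen-presenting cells such as macrophages, dendritic cells and activated microglia. Brain endothelium is known to hold a standing level of interferon-responsive transcripts and of class I molecules.

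Values are the authors' normalized log2 signals, on which a difference of 1 is a doubling. The 24 arrays of the ret and R26P lines share a lowest value of 2.16, and the 6 wild-type arrays share another, 2.17, so that these sets were normalized apart and wild type is compared only between its own regions. Tests are limma's moderated test across all 11243 genes, two-sided, with Benjamini-Hochberg adjustment and a threshold of 0.05. Pericyte genes checked the genotypes: 9 of 9 fell in each of the 3 mutant comparisons, with median log2 changes of -3.87 in ret mutants, -3.26 in R26P mutant cerebrum and -2.98 in R26P mutant cerebellum. Growth hormone (Gh), a pituitary transcript, exceeded a log2 signal of 8 on 3 of 4 ret mutant arrays and no ret control array, on 2 of 4 R26P mutant and 2 of 4 R26P control cerebrum arrays, on 1 R26P mutant cerebellum array and on 1 wild-type cerebrum array. In replicate order, the sex labels are male, male, male and female for ret controls, and male, female, female and female for ret mutants. They are male, female, female and female for R26P controls, female, male, male and female for R26P mutants, and female, female and male for wild type. Sex labels thus differ between the mutant and control groups. Xist, the transcript of the inactive X chromosome, went against the sex label of all 4 ret controls.

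The start regions of the members are shown because several carry the sequence element through which interferon regulatory factors act, and because the genes that changed fall on both sides of that division. RefSeq promoters (GRCm38.p6, 250 bases before the start and 50 from it) were found for 8 of the 9 genes, all but Cd74. The paired element was searched as GAAANNGAAA, with its other strand TTTCNNTTTC, and the gamma-activated site as TTCNNNGAA, which reads the same on both strands. Of 32851 mouse promoters of 300 bases, 3.443% held the first and 8.298% the second. Among the members, 6 of 8 held the paired element, namely Gbp2, Ifitm3, Ifit1, Ifit3, Bst2 and B2m, and 2 of 8 held the gamma-activated site, Ifitm3 and Bst2, in both cases overlapping a paired element. Below, 5 start regions are given 5′ to 3′ on the strand of the gene, with matches to either motif in capitals.
Gbp2: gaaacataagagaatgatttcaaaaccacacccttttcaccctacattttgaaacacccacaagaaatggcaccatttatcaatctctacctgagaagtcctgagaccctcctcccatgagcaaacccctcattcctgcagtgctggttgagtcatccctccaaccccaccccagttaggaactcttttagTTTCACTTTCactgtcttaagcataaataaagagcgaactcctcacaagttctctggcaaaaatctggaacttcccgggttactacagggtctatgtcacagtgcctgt
Ifitm3: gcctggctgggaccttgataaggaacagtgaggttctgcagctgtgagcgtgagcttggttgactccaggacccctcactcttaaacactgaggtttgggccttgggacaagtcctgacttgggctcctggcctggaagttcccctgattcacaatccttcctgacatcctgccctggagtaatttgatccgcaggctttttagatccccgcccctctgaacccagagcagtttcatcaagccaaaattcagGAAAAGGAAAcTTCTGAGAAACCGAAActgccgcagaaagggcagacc
Ifit1: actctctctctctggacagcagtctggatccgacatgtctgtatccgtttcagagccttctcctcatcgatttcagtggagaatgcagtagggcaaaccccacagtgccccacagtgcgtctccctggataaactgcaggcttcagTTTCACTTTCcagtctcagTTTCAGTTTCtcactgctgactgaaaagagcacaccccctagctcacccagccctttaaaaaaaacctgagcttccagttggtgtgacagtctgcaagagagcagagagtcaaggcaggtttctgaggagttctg
B2m: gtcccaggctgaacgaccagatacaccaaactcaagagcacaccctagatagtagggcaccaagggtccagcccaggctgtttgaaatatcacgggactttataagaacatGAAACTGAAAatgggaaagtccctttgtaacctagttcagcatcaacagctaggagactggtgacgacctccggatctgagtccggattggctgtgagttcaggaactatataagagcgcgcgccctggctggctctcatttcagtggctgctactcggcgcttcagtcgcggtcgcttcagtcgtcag
Tap1: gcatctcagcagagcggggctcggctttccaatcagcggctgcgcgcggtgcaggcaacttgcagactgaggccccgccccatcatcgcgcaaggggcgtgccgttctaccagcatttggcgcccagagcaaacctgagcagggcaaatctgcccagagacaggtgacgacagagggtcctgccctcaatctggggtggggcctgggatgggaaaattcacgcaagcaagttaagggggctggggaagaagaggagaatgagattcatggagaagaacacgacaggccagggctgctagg
Gbp2 lies at chr3:142620413-142620712 on the plus strand with its match at bases -59 to -50 from the start, and Ifit1 at chr19:34640639-34640938 on the plus strand with matches at -104 to -95 and -85 to -76. Ifitm3, at chr7:141010695-141010994 on the minus strand, has its matches just after the start, at 3 to 12 and 20 to 29, with a gamma-activated site at 14 to 22 that overlaps the second. B2m, at chr2:122147437-122147736 on the plus strand, has a match at -139 to -130. The Tap1 window, at chr17:34187306-34187605 on the plus strand, holds neither motif and shares 275 bases with that of Psmb9, an immunoproteasome subunit read from the other strand, whose start lies 226 bases away. A match is a description of letters in this window, and no match says nothing of the factors at that gene.

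**Figure D1:**
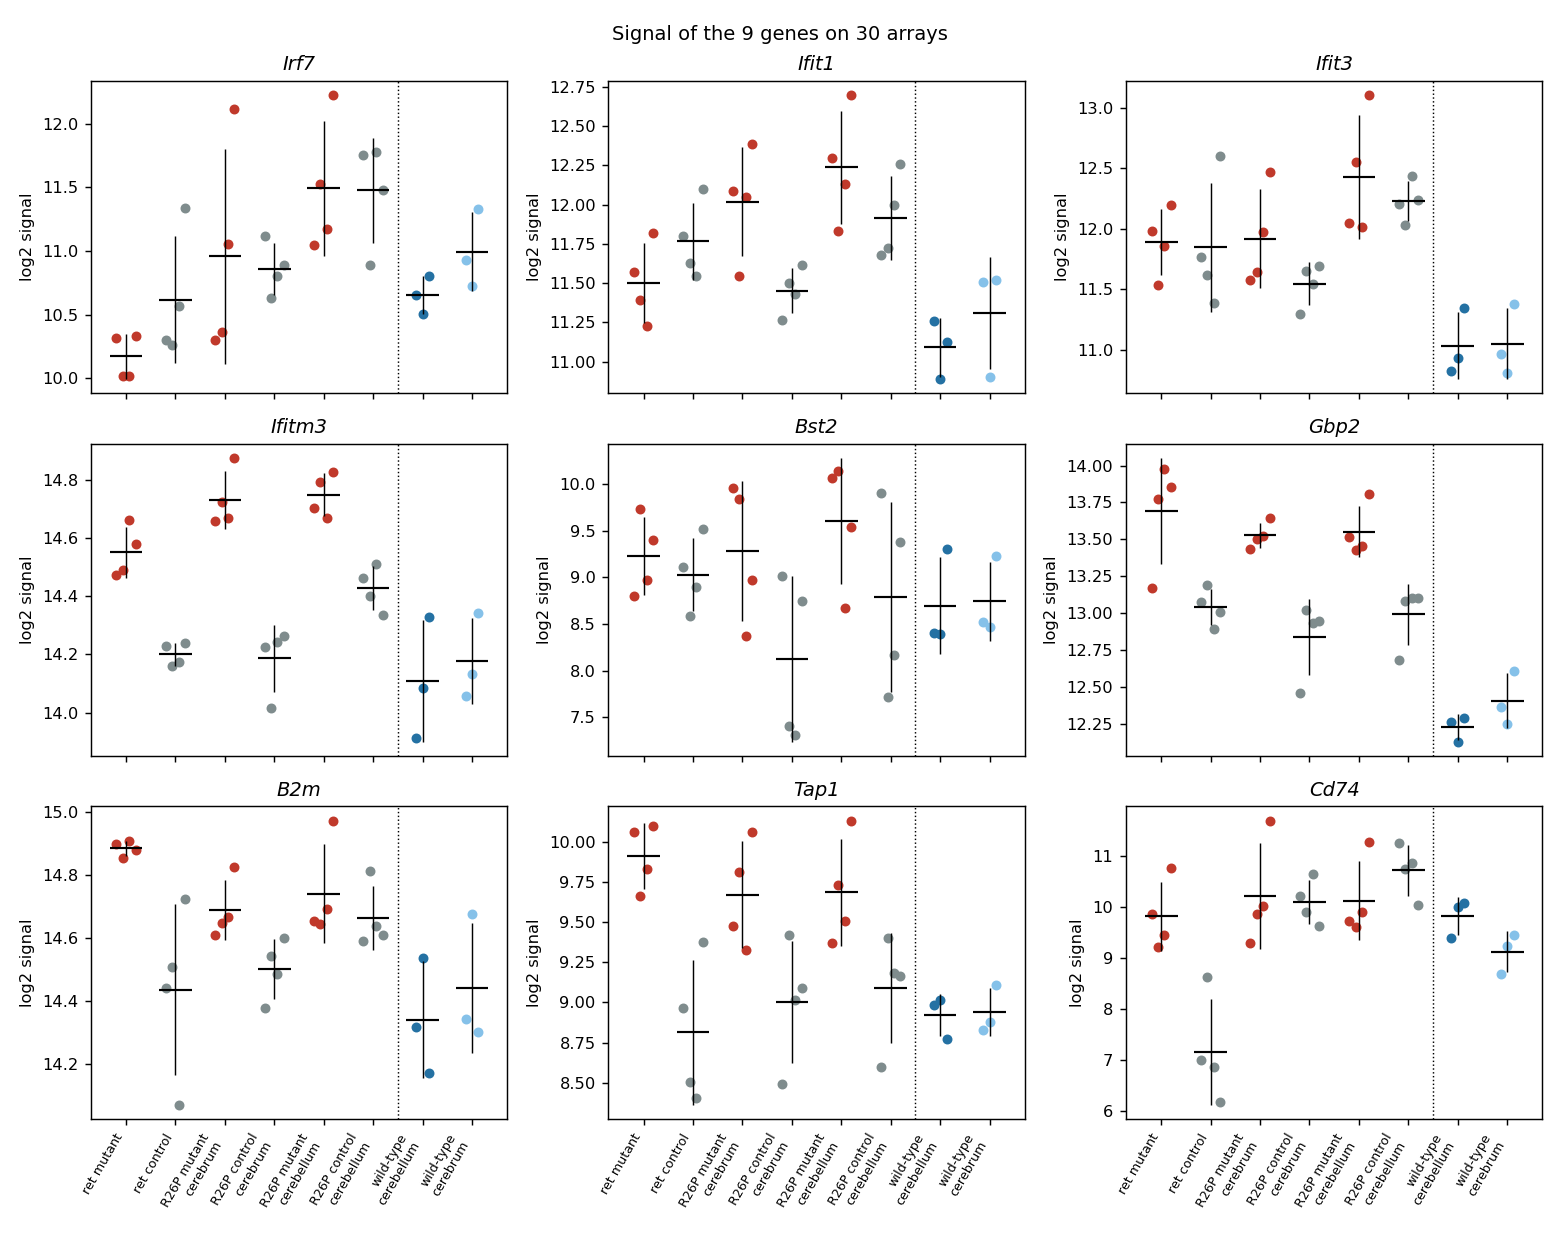
Log2 signal of the 9 genes (1 panel each) on every array, by genotype and region, with mutant groups left of their controls. Dots are single arrays and bars the mean with SD; the dotted line sets off the wild-type arrays, which were normalized apart. Cd74 was lower in ret controls, at 6.18 to 8.63, than in any other group of the 24 arrays.

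Among the 24 arrays of the ret and R26P lines, the mean level was highest in R26P mutant cerebellum for Irf7, Ifit1, Ifit3, Ifitm3 and Bst2, in ret mutants for Gbp2, B2m and Tap1, and in R26P control cerebellum for Cd74. When the 6 groups were ordered by mean for each gene, neighbouring groups overlapped in nearly every case. The exceptions were R26P control cerebellum above ret controls for Ifitm3, R26P mutant cerebrum above ret controls for Gbp2, and ret mutants above ret controls for Cd74. The plot of the 9 genes by group shows these gaps.

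In ret mutants, 4 of the 9 genes were higher than in ret controls by the test: Cd74 by 6.29-fold, Tap1 by 2.14-fold, Gbp2 by 1.57-fold and Ifitm3 by 1.28-fold. Over all genes tested, 16.6% were called in either direction, 8.00% higher and 8.63% lower, and the median log2 change was 0.35 over the members and 0.01 over all genes. The other 5, namely Irf7, Ifit1, Ifit3, Bst2 and B2m, did not pass the test in either direction. In bulk fragments, a change in the number of cells of a type and a change in RNA per cell cannot be told apart.

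Irf7, the transcription factor that amplifies type I interferon production, had log2 signals of 10.32, 10.02, 10.01 and 10.33 in ret mutants, against 10.30, 10.26, 10.57 and 11.34 in ret controls. Ret control 4 was the highest array, and the groups overlapped. The log2 change was -0.45 ± 0.24 (SE, n = 4 each), with a limma adjusted p of 0.240.

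Ifit1 and Ifit3 encode antiviral proteins that bind foreign RNA or the proteins around it, and are standard readouts of type I interferon. Ifit1 measured 11.57, 11.39, 11.23 and 11.82 in ret mutants, against 11.80, 11.63, 11.54 and 12.10 in ret controls. Ifit3 measured 11.98, 11.54, 11.85 and 12.20 in ret mutants, against 11.77, 11.62, 11.39 and 12.61 in ret controls. Both overlapped between the groups, with log2 changes of -0.27 ± 0.16 for Ifit1 (adjusted p = 0.302) and 0.05 ± 0.27 for Ifit3 (adjusted p = 0.929). Ifit3b, a close copy of Ifit3, has no probe set of its own here, so the Ifit3 signal may hold both.

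Ifitm3, a membrane protein that blocks virus entry and is abundant in vessels, measured 14.47, 14.49, 14.66 and 14.58 in ret mutants, against 14.23, 14.16, 14.17 and 14.24 in ret controls. Every mutant array lay above every control array, as for B2m, Tap1 and Cd74 among the members and for 11.7% of all genes. The log2 change was 0.35 ± 0.07 (limma adjusted p = 0.0111). Ifitm2, a close relative with its own probe set, averaged 12.94 over the 30 arrays, and whether the Ifitm3 probes also bind it was not tested.

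Bst2 (tetherin), which holds budding viruses on the cell surface, measured 8.80, 9.73, 8.98 and 9.40 in ret mutants, against 9.11, 8.59, 8.90 and 9.52 in ret controls. The values interleave, and the log2 change was 0.20 ± 0.26 (adjusted p = 0.640).

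Gbp2, a large GTPase of the guanylate-binding family and a marker of the interferon gamma response, measured 13.17, 13.77, 13.98 and 13.86 in ret mutants, against 13.08, 13.19, 12.90 and 13.01 in ret controls. Mutants 2, 3 and 4 stood above all controls, while mutant 1 lay just under control 2. The log2 change was 0.65 ± 0.18 with an adjusted p of 0.0426, and it missed the threshold when any array other than mutant 1 was left out (adjusted p 0.0755 to 0.103). Its second probe set changed by 0.70 ± 0.22 (adjusted p = 0.0703 over 18851 probe sets).

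B2m is the light chain of class I molecules and Tap1 a subunit of the transporter that brings peptides to them. B2m measured 14.90, 14.85, 14.91 and 14.88 in ret mutants, against 14.44, 14.51, 14.07 and 14.73 in ret controls. All mutants were above all controls, but the change of 0.45 ± 0.13 missed the threshold (adjusted p = 0.0544; 0.0249 without ret control 4). Tap1 measured 10.06, 9.66, 9.83 and 10.10 in ret mutants, against 8.97, 8.51, 8.41 and 9.38 in ret controls. The groups did not overlap, and the change was 1.10 ± 0.22 (adjusted p = 0.0155). The 3 other Tap1 probe sets lay at the lowest value.

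Cd74, the invariant chain that escorts class II molecules, measured 9.86, 9.23, 9.45 and 10.76 in ret mutants, against 7.01, 8.63, 6.88 and 6.18 in ret controls. The groups were apart, with ret control 2 the only control above 8 and ret mutant 4 the highest array. The log2 change was 2.65 ± 0.55 (adjusted p = 0.0164), the largest among the 9 genes, and it stayed past the threshold when any single array was left out. Ret mutant 3, whose Gh signal was 2.84, had a Cd74 signal of 9.45, above all ret controls. With the 3 mutant arrays of high Gh left out, mutant 3 alone remained, so that the spread comes from the controls only and no call is read from it; the changes were then 0.46 for Ifitm3, 0.93 for Gbp2, 1.01 for Tap1 and 2.28 for Cd74.

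**Figure D2:**
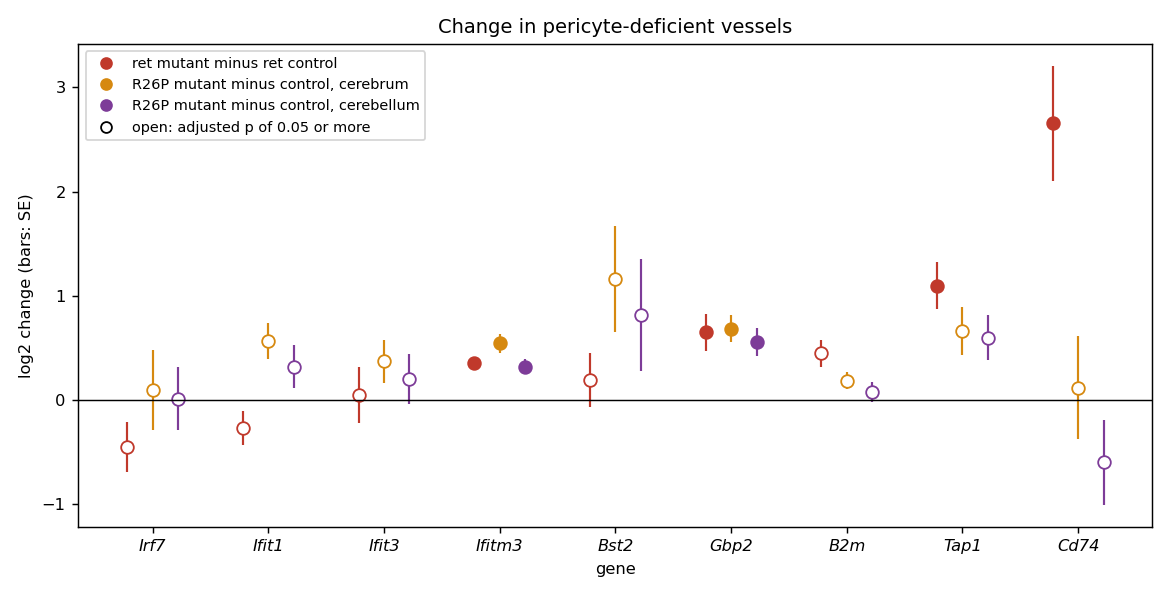
Log2 change with SE of each of the 9 genes, mutant minus control, in the ret line and in R26P cerebrum and cerebellum. Filled points have a limma adjusted p below 0.05: Ifitm3 and Gbp2 in all 3 comparisons, and Tap1 and Cd74 in the ret comparison, with changes of 1.10 and 2.65.

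In R26P mutants, Ifitm3 and Gbp2 were higher than in R26P controls in both regions, and no other member passed the test in either. In cerebrum the changes were 0.54 ± 0.09 for Ifitm3, a 1.46-fold difference (adjusted p = 0.00535), and 0.69 ± 0.13 for Gbp2, a 1.61-fold difference (adjusted p = 0.0110). In cerebellum they were 0.32 ± 0.07 for Ifitm3, or 1.25-fold (adjusted p = 0.0231), and 0.56 ± 0.13 for Gbp2, or 1.47-fold (adjusted p = 0.0270). Over all genes, 18.7% were called in cerebrum (8.35% higher and 10.3% lower) and 15.6% in cerebellum (6.94% higher and 8.70% lower), and a count of 2 in 9 is to be read against those shares. Without the cerebrum arrays of high Gh, an alternative added after the data were seen that leaves 2 arrays a group, neither gene passed (Ifitm3 0.52, adjusted p = 0.158; Gbp2 0.84, adjusted p = 0.179). The 2 regions come from the same 4 animals of each genotype and are not independent.

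Ifitm3 measured 14.66, 14.72, 14.67 and 14.88 in R26P mutant cerebrum, against 14.23, 14.02, 14.24 and 14.26 in control cerebrum. In cerebellum it measured 14.70, 14.79, 14.67 and 14.83 in mutants, against 14.46, 14.40, 14.51 and 14.33 in controls. In both regions every mutant array lay above every control array, which held for 12.9% of all genes in cerebrum and 11.3% in cerebellum, and mutant 4 was the highest. In cerebellum the call was lost without mutant 2, mutant 4 or control 2 (adjusted p 0.0601, 0.0543 and 0.0522).

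Gbp2 measured 13.44, 13.50, 13.52 and 13.65 in R26P mutant cerebrum, against 12.46, 13.02, 12.93 and 12.95 in control cerebrum. In cerebellum it measured 13.52, 13.43, 13.46 and 13.80 in mutants, against 12.69, 13.08, 13.11 and 13.11 in controls. The groups did not overlap in either region, and control 1 was the lowest array in both. Leaving out cerebellum mutant 1, 3 or 4, or control 2, lost the call for Gbp2 there (adjusted p 0.0580, 0.0543, 0.0518 and 0.0502). The second probe set changed by 0.58 ± 0.16 in cerebrum (adjusted p = 0.0426) and by 0.55 ± 0.18 in cerebellum (adjusted p = 0.0813).

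Ifit1 came close in cerebrum, with 12.09, 11.55, 12.05 and 12.38 in R26P mutants, against 11.27, 11.50, 11.43 and 11.61 in R26P controls. Only mutant 2 lay within the control range, and the change was 0.56 ± 0.17 (adjusted p = 0.0586; 0.0131 without mutant 2). In cerebellum it measured 11.83 to 12.70 in mutants, against 11.68 to 12.26 in controls, an overlapping pair of groups with a change of 0.32 ± 0.20 (adjusted p = 0.316). Irf7 spread widely in R26P mutant cerebrum, at 10.30, 10.37, 11.05 and 12.12, against 11.12, 10.63, 10.80 and 10.89 in control cerebrum. Its change of 0.10 ± 0.38 (adjusted p = 0.875) was -0.29 without mutant 4. Ifit3 changed by 0.37 ± 0.20 in cerebrum and 0.20 ± 0.24 in cerebellum (adjusted p 0.238 and 0.600).

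Tap1 measured 9.47, 9.81, 9.33 and 10.06 in R26P mutant cerebrum, against 8.49, 9.42, 9.01 and 9.09 in control cerebrum. Mutant 3 lay below control 2, and the change was 0.67 ± 0.23 (adjusted p = 0.0794); in cerebellum it was 0.60 ± 0.22 (adjusted p = 0.103). B2m measured 14.61, 14.65, 14.67 and 14.83 in mutant cerebrum, against 14.38, 14.54, 14.49 and 14.60 in control cerebrum. Its groups just failed to overlap, with a change of 0.19 ± 0.08 (adjusted p = 0.155); groups without overlap in this direction made up 12.9% of all genes. Bst2 had the largest change in cerebrum, 1.16 ± 0.51, with widely spread arrays and an adjusted p of 0.151.

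Cd74 measured 9.29, 9.87, 10.03 and 11.70 in R26P mutant cerebrum, against 10.22, 9.90, 10.65 and 9.64 in control cerebrum. In cerebellum it measured 9.74, 9.61, 9.91 and 11.27 in mutants, against 11.26, 10.75, 10.86 and 10.05 in controls. Mutant 4 was the highest mutant in both regions; the other 3 mutants lay within the control range or below it. The changes were 0.12 ± 0.49 in cerebrum and -0.60 ± 0.41 in cerebellum (adjusted p 0.882 and 0.349), and the cerebrum value was -0.37 without mutant 4.

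Whether the genotype effect differed was tested directly. The R26P effect in cerebellum minus that in cerebrum passed the limma test for 0 of 9 genes, where 0.116% of all genes were called. At an unadjusted p below 0.05 there were 0 of 9, against 2.75% of all genes. The 9 differences ran from -0.72 ± 0.67 for Cd74 to -0.07 for Tap1. This fit treats the regions of an animal as independent. With the animal as a block, 0 of 9 passed as well. Cd74 then differed by -0.72 ± 0.24 (limma adjusted p = 0.369) and Ifitm3 by -0.22 ± 0.09 (adjusted p = 0.459). The ret effect minus the R26P cerebrum effect also passed for 0 of 9 genes, with 2 at an unadjusted p below 0.05, where 3.35% of all genes were called and 21.8% had such an unadjusted p. Those 2 were Cd74, at 2.53 ± 0.77 (adjusted p = 0.0837), and Ifit1, at -0.83 ± 0.25 (adjusted p = 0.0771). Cd74 passed without ret control 2 or without R26P mutant cerebrum 4 (adjusted p 0.0447 and 0.0284), and Ifit1 without R26P mutant cerebrum 2 (adjusted p = 0.0380). For Gbp2 the ret and R26P effects differed by -0.04 ± 0.23 and for Ifitm3 by -0.19 ± 0.11. Line, strain, age and region differ together between these comparisons and cannot be told apart.

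Lists of other genes of these pathways give the members their setting. Of 28 tested type I interferon targets, 1 was called higher and 4 lower in ret mutants, with a median log2 change of -0.07, where 8.00% of all genes were called higher and 8.63% lower. Zbp1, a sensor of nucleic acids, was higher by 0.70 ± 0.16 (adjusted p = 0.0230), at low signals of 4.21 to 4.97 in ret mutants, against 3.91 to 4.03 in ret controls. Oas2, an enzyme that activates RNase L, fell by 3.09 (SE 0.38, adjusted p = 0.00211), with 5.26, 5.03, 5.39 and 6.83 in ret mutants, against 9.05, 8.47, 8.70 and 8.63 in ret controls. Ifitm1, a relative of Ifitm3, fell by 1.56 (SE 0.40, adjusted p = 0.0350), with 8.90, 8.87, 10.53 and 9.31 in ret mutants, against 11.29, 10.36, 11.27 and 10.92 in ret controls. Mutant arrays lay below control arrays for Oas2, and ret mutant 3 overlapped them for Ifitm1. Samd9l fell by 0.41 (SE 0.10, adjusted p = 0.0337), and Cmpk2, named here after its values were seen, fell by 0.83 (SE 0.21, adjusted p = 0.0351). Oas2 and Ifitm1 thus moved with the pericyte genes and opposite to Ifitm3; the part of pericyte loss in these changes was not tested.

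Oas2 and Ifitm1 were also lower in R26P mutants of both regions. Oas2 changed by -2.22 ± 0.54 in cerebrum (adjusted p = 0.0274) and by -1.55 ± 0.40 in cerebellum (adjusted p = 0.0364). Ifitm1 measured 9.01, 8.64, 9.09 and 10.06 in mutant cerebrum, against 10.49, 10.31, 10.68 and 10.29 in control cerebrum, and 9.20, 9.51, 9.34 and 9.54 in mutant cerebellum, against 10.71, 10.74, 10.91 and 10.72 in control cerebellum. Its groups were apart in both, with changes of -1.24 ± 0.28 (adjusted p = 0.0206) and -1.37 ± 0.10 (adjusted p = 0.000185). Oas2 stayed past the threshold in either region only when mutant 4 was the array left out, whereas Ifitm1 stayed past it in cerebellum whichever array was left out and missed it in cerebrum without mutant 1, control 1 or control 3. The remaining calls of this list in R26P mutants were upward. In cerebrum, where 8.35% of all genes were called higher, 4 of 28 rose: Oasl1 by 1.04 ± 0.24 (adjusted p = 0.0214), Usp18, a brake on interferon signalling, by 0.74 ± 0.20 (adjusted p = 0.0392), Ly6e by 0.30 ± 0.08 (adjusted p = 0.0430) and Xaf1 by 0.73 ± 0.21 (adjusted p = 0.0435). In cerebellum, with 6.94% of all genes called higher, 1 of 28 did: Ly6e rose by 0.32 ± 0.08 (adjusted p = 0.0344). The cerebrum count of 4 was 2 without mutant 1 or control 4, 1 without mutant 3 or 4, and 0 without control 1 or 3. Xaf1 changed direction in cerebrum when the probe sets of a gene were averaged.

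Of 12 tested interferon gamma targets, 5 were called higher in ret mutants, where 8.00% of all genes were. A positive change was seen in 12 of 12, and the median was 0.81 against 0.01 over all genes. Cxcl10, a chemokine that draws T cells, measured 8.19, 7.55, 7.47 and 8.07 in ret mutants, against 6.17, 5.73, 5.42 and 6.75 in ret controls. All mutants lay above all controls, and the change was 1.80 ± 0.31 (adjusted p = 0.00763). The immunity-related GTPases Iigp1 and Ifi47 rose by 1.26 ± 0.26 and 0.87 ± 0.21 (adjusted p 0.0156 and 0.0298), and Gbp6, a relative of Gbp2, by 1.45 ± 0.30 (adjusted p = 0.0172). Cxcl11, named after its values were seen, rose by 3.41 ± 0.88 (adjusted p = 0.0358) with overlapping groups. The count was 3 without ret mutant 2, 3 or 4 or ret control 1 or 3, and 2 without ret control 2. In R26P mutant cerebrum, Ifi47, Igtp and Gbp6 rose by 0.65 ± 0.15, 0.67 ± 0.16 and 0.63 ± 0.18 (adjusted p 0.0205, 0.0248 and 0.0426), and in cerebellum Ifi47 and Igtp by 0.57 ± 0.13 and 0.56 ± 0.15 (adjusted p 0.0237 and 0.0453). Of all genes, 8.35% were called higher in cerebrum and 6.94% in cerebellum. The cerebrum count of 3 was 1 without mutant 1, 2 or 4 or control 3, 0 without control 4 and 5 without control 2. The cerebellum count of 2 was 0 without mutant 1, 2 or 4 or control 4 and 1 without mutant 3 or control 1 or 3.

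Of the interferon genes themselves, Ifnb1, Ifng, Ifna1, Ifna2 and Ifna4 lay at or near the lowest value in every group and none passed the filter. Of 12 receptors and signal transducers, 1 was called in ret mutants, where 16.6% of all genes were called. It was the interferon gamma receptor chain Ifngr1 at 0.31 ± 0.09 (adjusted p = 0.0487). In R26P mutants 0 were called by limma in either region, where 18.7% of all genes were called in cerebrum and 15.6% in cerebellum. At an unadjusted p below 0.05 there were 2 in cerebrum and 0 in cerebellum, against 34.2% and 31.6% of all genes.

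**Figure D3:**
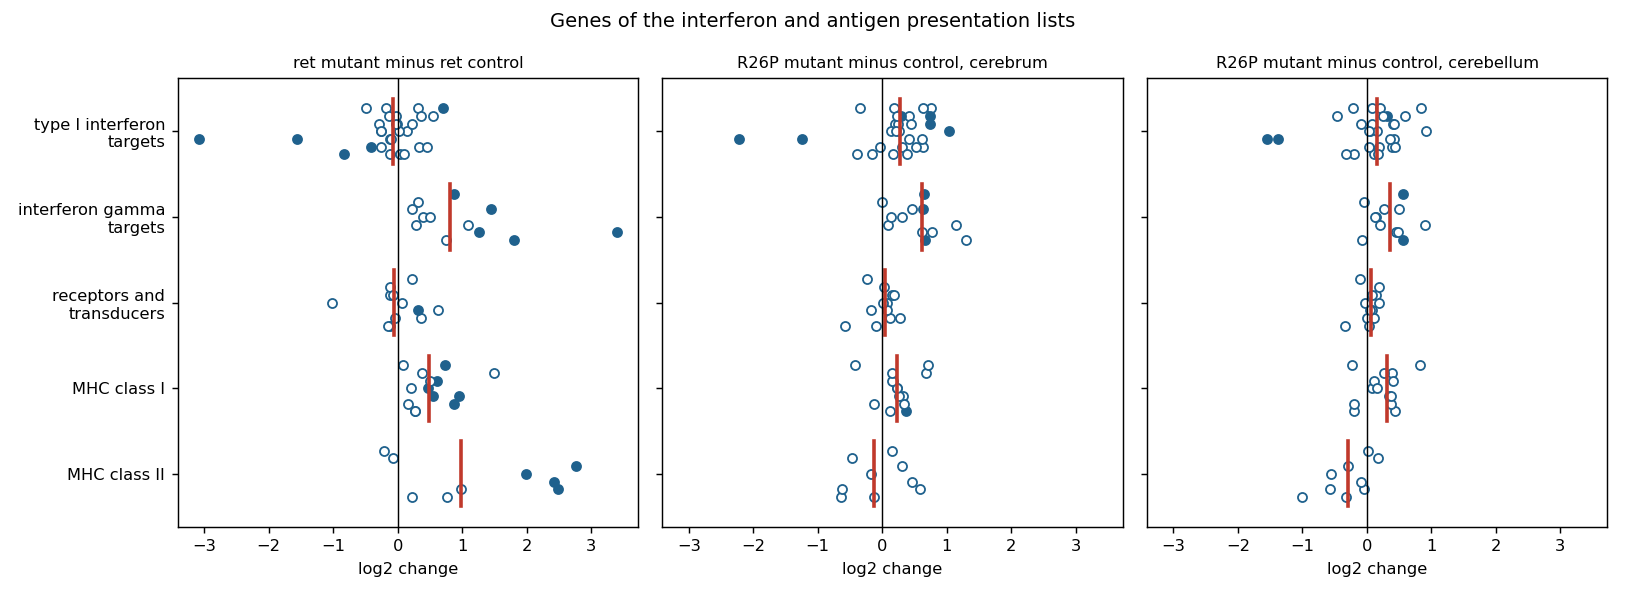
Log2 change of every tested gene of the 5 pathway lists, mutant minus control, in the ret line and in R26P cerebrum and cerebellum. Filled points have a limma adjusted p below 0.05 and the red line is the median of the list: 0.81 for interferon gamma targets and -0.07 for type I targets in ret mutants.

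Of 14 tested class I genes besides B2m and Tap1, 6 were called higher in ret mutants, where 8.00% of all genes were. The test was not passed by 8, and 14 of 14 had a positive change, with a median of 0.49. H2-K1, a class I heavy chain, measured 15.91, 15.55, 15.71 and 15.64 in ret mutants, against 15.12, 15.00, 14.88 and 15.37 in ret controls, which were all lower. It rose by 0.61 ± 0.13 (adjusted p = 0.0163), and the other heavy chain H2-D1 by 0.48 ± 0.09 (adjusted p = 0.0130). Erap1, which trims peptides, rose by 0.54 ± 0.10 (adjusted p = 0.0111), and the immunoproteasome subunit Psmb8 by 0.87 ± 0.18 (adjusted p = 0.0155). Psmb9, named here because it shares its start region with Tap1 and after its values were seen, measured 11.78, 11.50, 11.80 and 11.87 in ret mutants, against 10.86, 10.72, 10.17 and 11.41 in ret controls. It rose by 0.95 ± 0.24 (adjusted p = 0.0364), beside 1.10 ± 0.22 for Tap1. The count was 3 without ret control 2. In R26P mutants 1 of 14 was called in each region, a share near that of all genes called higher (8.35% in cerebrum and 6.94% in cerebellum), namely Psmb10 in cerebrum at 0.37 ± 0.10 (adjusted p = 0.0343) and Erap1 in cerebellum at 0.35 ± 0.10 (adjusted p = 0.0499).

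Of 9 tested class II genes besides Cd74, 4 were called higher in ret mutants, where 8.00% of all genes were: H2-Aa by 2.49 ± 0.51 (adjusted p = 0.0152), H2-Ab1 by 2.43 ± 0.51 (adjusted p = 0.0171), H2-Eb1 by 2.77 ± 0.66 (adjusted p = 0.0271) and H2-DMa by 1.99 ± 0.51 (adjusted p = 0.0346). H2-Aa, an alpha chain, measured 11.93, 12.43, 12.56 and 13.73 in ret mutants, against 9.62, 11.27, 10.39 and 9.41 in ret controls. Ret mutant 4 was highest and ret control 2 the highest control, as for Cd74. The count was 2 without ret mutant 2 or 3 or ret control 1, 2 or 4. In R26P mutants 0 of 9 were called by limma in either region, where 18.7% of all genes were called in cerebrum and 15.6% in cerebellum. At an unadjusted p below 0.05 there were 0 in cerebrum and 1 in cerebellum, against 34.2% and 31.6% of all genes. The median log2 change was -0.14 in cerebrum and -0.29 in cerebellum. The ret effect minus the R26P cerebrum effect was called by limma for 0 of 9, where 3.35% of all genes were. It had an unadjusted p below 0.05 for 6, against 21.8% of all genes, and a median of 1.61.

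Single arrays decided many of these calls. Of the 21 genes of the 5 lists called in ret mutants, 8 stayed past the threshold whichever of the 8 arrays was left out: Oas2, Iigp1, Cxcl10, H2-D1, Psmb8, Erap1, H2-Aa and H2-Ab1. Gbp6 and H2-K1 missed it only without ret control 2 (adjusted p 0.0514 and 0.0522). The other 11 missed it in 4 (Tapbpl) to 7 (Ifi47) of the 8 fits, Ifitm1 among them without ret mutant 1, 2 or 4 or ret control 1, 3 or 4. On the 1 ret mutant array without high Gh, all 21 changes had the same direction as over the 4. Of the 10 called in R26P mutant cerebrum none stayed past the threshold in all 8 fits, Oasl1 and Ifi47 missing it in 2, and 0 were called without the arrays of high Gh, all 10 keeping their direction. Of the 6 called in R26P mutant cerebellum, Ifitm1 alone stayed past it in all 8.

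Markers of cells that carry class II were measured beside Cd74. Plac8, a monocyte and neutrophil gene, measured 8.64, 7.96, 9.68 and 10.15 in ret mutants, against 4.50, 2.77, 2.77 and 2.78 in ret controls (change 5.90 ± 0.58, adjusted p = 0.0009). Lyz2, a lysozyme of monocytes and macrophages, measured 11.32, 11.70, 11.76 and 12.45 in ret mutants, against 9.92, 8.52, 9.38 and 8.86 in ret controls (change 2.64 ± 0.35, adjusted p = 0.00271). Itgax, a dendritic cell and activated microglia gene, measured 3.92, 4.17, 4.62 and 5.44 in ret mutants, against 3.41, 3.23, 3.53 and 3.54 in ret controls. Plac8, Lyz2 and Itgax were higher on every ret mutant array than on any ret control array, and ret mutant 4 was the highest in each, as for Cd74. Over all genes, 11.7% had every ret mutant array above every ret control array. The dendritic cell list as a whole was split. Of 3 tested genes Itgax was called higher by limma (1.11 ± 0.31, adjusted p = 0.0460). Zbtb46, a transcription factor, was called lower (-1.57 ± 0.22, adjusted p = 0.00328), while Siglech changed by 1.19 ± 0.38 (adjusted p = 0.0718). In R26P control cerebrum Zbtb46 averaged 9.38, Siglech 9.73 and Itgax 3.66. Which cells of the fragments carry these 3 transcripts was not tested, so this list is no clear measure of dendritic cells. The list means overlapped, at 7.31 to 7.95 in ret mutants, against 6.94 to 7.57 in ret controls. Of the monocyte list, 3 of 8 genes were tested. Plac8 and Lyz2 were called higher and Ccr2 was not, where 8.00% of all genes were called higher. The list's markers S100a8 and Ly6c2 were not tested. The list means were 7.74 to 8.72 in ret mutants, against 4.95 to 5.99 in ret controls, and rest on those 3 genes. All 12 microglia genes had positive changes in ret mutants and 0 were called by limma, where 16.6% of all genes were. At an unadjusted p below 0.05 there were 5, against 32.7% of all genes. The microglia list means were 11.12 to 12.27 in mutants, against 10.55 to 11.33 in controls. Perivascular macrophage genes gave 0 calls of 6 by limma, and 0 at an unadjusted p below 0.05, at 4.75 to 6.34 in mutants, against 4.91 to 5.48 in controls. Cd3e, Cd3g and Nkg7 of T and NK cells and Xcr1 of dendritic cells were at the lowest value on all ret arrays, and Cd79a of B cells at or near it. The endothelium list was at 13.23 to 13.53 in ret mutants, against 13.28 to 13.60 in ret controls. The part of these cells in the Cd74 change was not tested.

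In R26P mutants, Plac8 was higher in cerebrum, by 5.16 ± 0.78 (adjusted p = 0.00397), where Cd74 was not called (0.12 ± 0.49). The monocyte list means were 7.76 to 9.37 in mutant cerebrum, against 5.58 to 6.59 in control cerebrum, and 6.83 to 9.25 in mutant cerebellum, against 6.22 to 7.84 in control cerebellum. They rest on Plac8, Lyz2 and Ccr2. Ccr2 averaged 3.77 in mutant and 3.61 in control cerebrum, and 3.72 in mutant and 3.58 in control cerebellum. The 12 microglia genes had negative changes in both regions, and 1 was called lower in cerebrum, where 10.3% of all genes were. Mutant 4 carried the highest Plac8 in both regions, 10.62 in cerebellum and 11.28 in cerebrum, and the highest Lyz2, Itgax and Cd74 too.

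**Figure D4:**
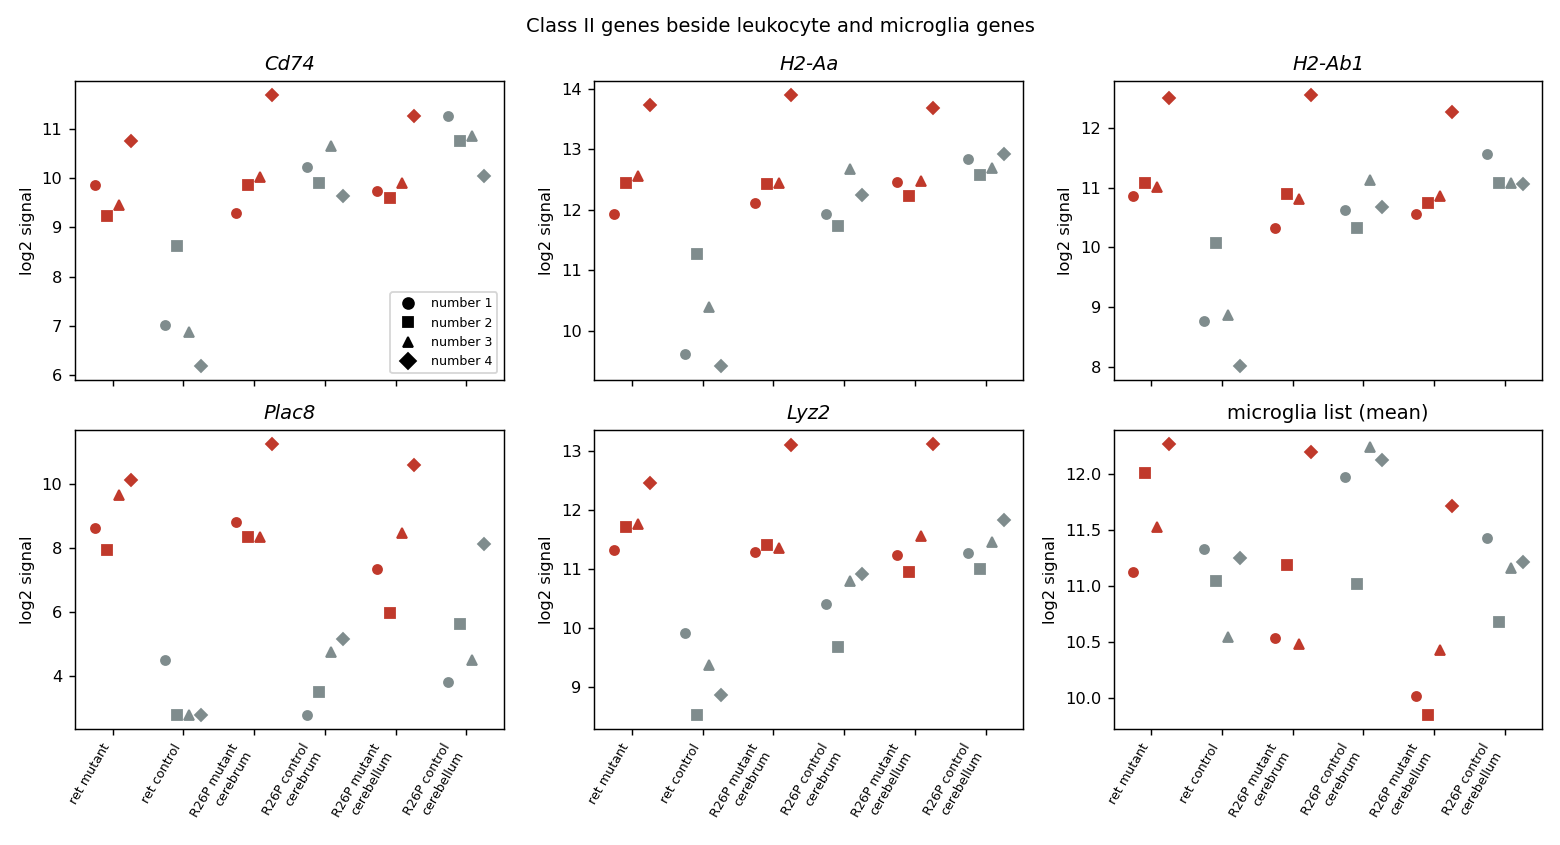
Log2 signal of Cd74, H2-Aa, H2-Ab1, Plac8, Lyz2 and the mean of 12 microglia genes on each array of the 24, with mutant groups left of their controls and each array marked by its replicate number. In ret mutants Cd74 is 9.23 to 10.76, against 6.18 to 8.63 in ret controls; in R26P mutants array 4 is the highest mutant for Cd74, Plac8 and Lyz2 in both regions.

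Region was compared within each genotype, where the cerebellum and cerebrum arrays of one number come from the same animal. The main test did not pair these arrays, and the animal as a block was an alternative. In R26P controls, Ifit3 was higher in cerebellum than in cerebrum by 0.68 ± 0.12, a 1.60-fold difference (limma adjusted p = 0.0448), and was the only member called, with 1.17% of all genes called (0.889% higher). That share rests on all 4 animals: 132 genes were called with all of them and 9 to 72 when any 1 animal was left out. Ifit3 measured 12.20, 12.03, 12.43 and 12.24 in control cerebellum, against 11.29, 11.65, 11.55 and 11.69 in control cerebrum. All cerebellum arrays lay above all cerebrum arrays, which also held for Ifit1 and Ifitm3 (5.35% of all genes lie so), and the call for Ifit3 was lost without any 1 of the 4 animals (adjusted p 0.0838 to 0.224). All 9 genes had a positive change. Within animals, 4 of 4 pairs were higher in cerebellum for 8 genes, and 3 of 4 for Tap1. The share of all genes higher in 4 of 4 pairs was not counted. The median change was 0.46 over the members and 0.03 over all genes.

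With the animal as a block, 475 genes were called in place of 132, Ifit3 had an adjusted p of 0.0409 and Bst2 passed as well, at 0.67 ± 0.12 (adjusted p = 0.0471, against 0.673 without the block). Bst2 measured 9.90, 7.72, 8.17 and 9.38 in control cerebellum, against 9.02, 7.41, 7.31 and 8.75 in control cerebrum. Animals differed more than regions, with 1 and 4 high and 2 and 3 low in both. Irf7 measured 11.76, 10.89, 11.78 and 11.48 in control cerebellum, against 11.12, 10.63, 10.80 and 10.89 in control cerebrum, a change of 0.62 ± 0.21 (adjusted p = 0.242; 0.0613 with the block). Of the 28 type I targets, 28 had a positive change in R26P controls, and the share of all genes with one was not counted. By limma 4 were called higher, where 0.889% of all genes were. They were Usp18 at 0.68 ± 0.10 (adjusted p = 0.0293), Ifi27l2a at 1.45 ± 0.25 (adjusted p = 0.0398), Lgals3bp at 0.63 ± 0.11 (adjusted p = 0.0462) and Oas1a at 0.57 ± 0.10 (adjusted p = 0.0490), each named after its values were seen. Of these 4 and Cxcl10, only Ifi27l2a stayed past the threshold in 1 of the 4 fits that leave out an animal, the one without animal 2. Cxcl10 measured 7.35, 6.77, 7.50 and 8.10 in control cerebellum, against 5.06, 6.02, 5.50 and 5.91 in control cerebrum, and was called at 1.81 ± 0.31 (adjusted p = 0.0403). Pericyte genes were also higher in control cerebellum, with 6 of 9 called; their part in these differences was not tested.

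In R26P mutants, 0 of the 9 genes and 0 of all 11243 were called between regions by limma, 0% of all genes, with 5.52% of all genes and none of the 9 at an unadjusted p below 0.05. The largest member changes were 0.53 ± 0.45 for Irf7 and 0.51 ± 0.30 for Ifit3. Irf7, Ifit1, Ifit3 and Bst2 were higher in cerebellum in 4 of 4 mutant pairs, and 27 of 28 type I targets had a positive change. The shares of all genes that were so were not counted. The median change was 0.05 over the members and 0.02 over all genes.

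In wild-type microvessels, 0 of the 9 genes were called between regions by limma, where 2.12% of all genes were, and 1 had an unadjusted p below 0.05, where 15.9% of all genes did. The 2.12% are 238 genes with all 3 animals, 0 or 1 when any 1 animal was left out, and 135 with the animal as a block. Irf7 measured 10.66, 10.51 and 10.81 in wild-type cerebellum, against 10.93, 10.72 and 11.33 in wild-type cerebrum, and was lower in cerebellum in all 3 pairs (change -0.34 ± 0.17, adjusted p = 0.405). Ifit1, Ifitm3, Gbp2 and B2m were likewise lower in cerebellum in 3 of 3 pairs. The share of all genes that were so was not counted, and their median change was -0.04. Of 28 type I targets, 7 had a positive change, with 0 called by limma and 1 at an unadjusted p below 0.05. Cd74 went the other way, at 9.40, 10.01 and 10.08 in wild-type cerebellum, against 8.69, 9.25 and 9.47 in wild-type cerebrum. All 3 pairs were higher in cerebellum, and the change of 0.69 passed the threshold with the animal as a block (SE 0.06, adjusted p = 0.0430) but not without it (SE 0.27, adjusted p = 0.286). Wild type and the R26P lines differ in normalization, strain and, by their sample titles, age. Their region differences were not tested against each other.

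**Figure D5:**
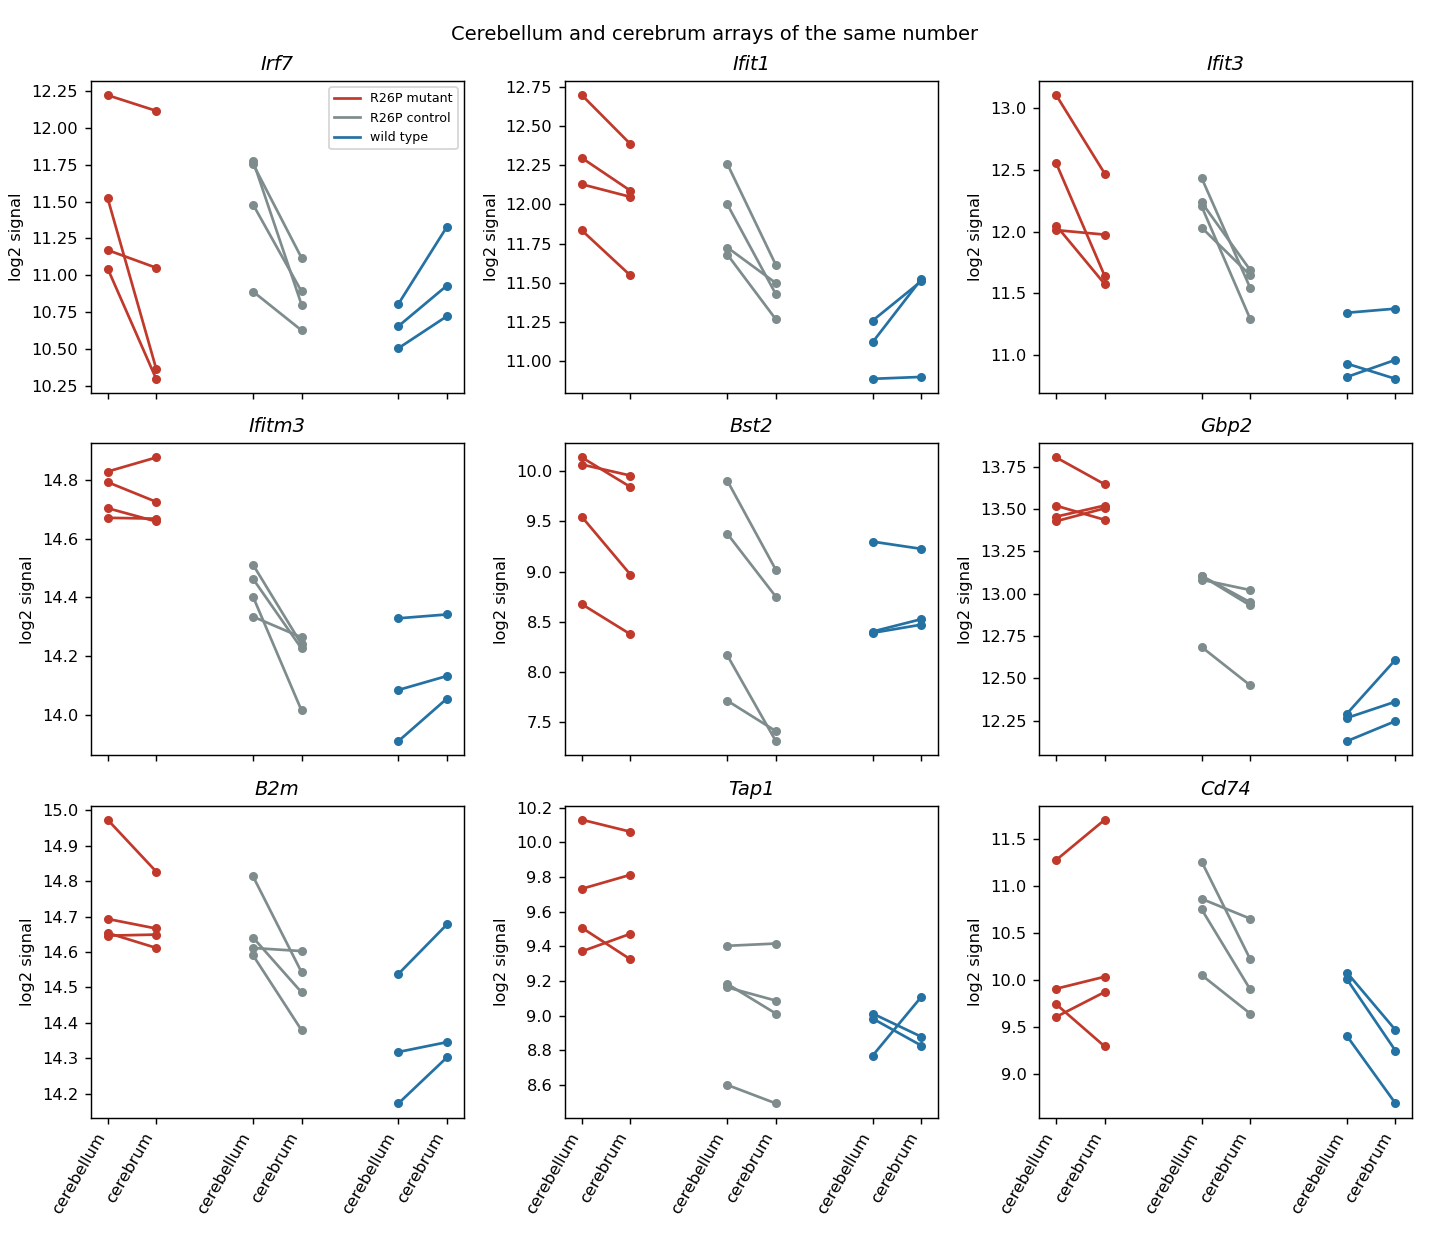
Log2 signal of the 9 genes in cerebellum and cerebrum, joined for each animal, in R26P mutants, R26P controls and wild type. In R26P controls 4 of 4 lines are higher in cerebellum for every gene but Tap1; in wild type 3 of 3 lines are lower in cerebellum for Irf7, Ifit1, Ifitm3, Gbp2 and B2m and higher for Cd74.

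The genes whose signal ran most like each member over the 24 arrays, from 16 animals, were sought among all 11243 by Pearson correlation. The arrays share genotype groups and animals, so these values only describe. Irf7 ran closest to Oas1a (r = 0.86), Chil1 (0.85) and Lgals3bp (0.84), Ifit1 to Usp18 (0.90) and Rtp4 (0.88), and Ifit3 to Ifih1 and Ifit2 (both 0.89). Tap1 ran closest to Ifi47 (0.95), H2-M3 (0.92) and Igtp (0.90), B2m to H2-D1 (0.92) and Gbp6 (0.88), and Cd74 to H2-Ab1 and H2-Aa (both 0.93) and H2-Eb1 (0.92). Ifitm3 was nearest to Nipa1 and Glrx5 (both 0.91), and Gbp2 to 5530601H04Rik (0.91) and to Cp, the ferroxidase ceruloplasmin (0.90). Bst2 had no such close neighbour, its nearest being Lzts1 at 0.755 and Fam214b at 0.749.

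Among the members themselves, with group means removed, Irf7 and Ifit3 had the highest correlation over the 24 arrays (r = 0.81), followed by B2m with Tap1 and Ifit3 with Tap1 (both 0.73). Bst2 was the gene apart, at -0.30 with Gbp2 and -0.29 with Cd74. R26P mutant 4 was the highest of its group for 8 of 9 members in both regions, Bst2 being the exception, and ret control 4 was the highest ret control for 7 of 9. Among the wild-type arrays, animal 3 was likewise the highest of its group for 8 of 9 in cerebrum and 6 of 9 in cerebellum.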

How the data were processed

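The deposited values are log2 signals that the authors made with GCRMA 2.6.0 in R 2.4.1, per the submitters' processing notes, on 45101 probe sets and 30 arrays. Of these, 34958 are paired with exactly 1 gene in the platform annotation, 932 with several and 9211 with none. For each of 18194 genes the probe set with the highest mean was used, and 11243 genes with a log2 signal above 4 on at least 3 of the 30 arrays were tested. Tests were run with limma 3.58.1 in R 4.3.3 on the groups compared, two-sided, with Benjamini-Hochberg adjustment over all genes tested and a threshold of 0.05, and were tested on simulated data. The number of arrays limits the precision.

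Replicate numbers mark the same animal in region comparisons (same-number correlation of deviations 0.34 to 0.84, each array best with its own number). They do not between mutants and controls (-0.20 to 0.34). The main tests used no pairing, and the replicate block was an alternative. Named genes are the 9 members, up to 4 genes of each pathway list with the lowest adjusted p in a mutant comparison, defining cell markers, close copies, and the 3 genes most correlated with each member. The members and lists were chosen with earlier results of these data known. Alternatives were the filter, the probe set rule, the prior, a renewed quantile normalization, all groups in 1 fit, the replicate block, Xist as a covariate, and leaving out single arrays or arrays with high Gh.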

Additional observations from a re-analysis of the deposited data

Results flagged for a closer look

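Among 54 sets of 4 arrays (9 genes in each group of 4), 4 held an array whose gap to its nearest neighbour exceeded the critical value of 0.829 times the range, and chance gives about 1 in 20. Ifitm3 was 14.02 in R26P control cerebrum 2, where the other controls were 14.23 to 14.26. Gbp2 was 12.46 in R26P control cerebrum 1 (others 12.93 to 13.02) and 12.69 in R26P control cerebellum 1 (others 13.08 to 13.11), which come from the same animal. B2m was 14.97 in R26P mutant cerebellum 4, where the other mutants were 14.65 to 14.69.

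For 5 genes, every animal of an R26P genotype was higher in cerebellum and every wild-type animal was lower there. These differences between genotypes were not tested, and how many of all genes show this pattern was not counted. The median change over all genes tested ran the same way, at -0.04 in wild type, 0.03 in R26P controls and 0.02 in R26P mutants. Wild type was normalized apart and also differs in strain and, by the sample titles, in age. Irf7 differed between cerebellum and cerebrum by a mean of 0.53 in R26P mutants, by 0.62 in R26P controls and by -0.34 in wild type. Ifit1 differed by 0.22 in R26P mutants, 0.46 in R26P controls and -0.22 in wild type. Ifitm3 differed by 0.24 in R26P controls and -0.068 in wild type, Gbp2 by 0.15 and B2m by 0.16 in R26P controls, against -0.18 for Gbp2 and -0.10 for B2m in wild type.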

How the results depend on the processing

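Of 1134 member values under an alternative, 1053 kept their direction and side of the threshold. Between mutants and controls, and between the lines, arrays of one replicate number come from different animals. Calls lost or gained there with the replicate block are therefore not read as an effect of pairing. Of the 4 genes called in ret mutants, no filter on low signals left 2 (Ifitm3 and Tap1), the replicate block 1 (Tap1) and leaving out arrays with high Gh 2, the last with 1 mutant array left and assumed to vary like the controls; with Xist as a covariate there were 4. B2m passed too with the stricter filter, the trend and robust prior, renewed quantile normalization and all groups in 1 fit (adjusted p 0.00413 to 0.0479). For R26P cerebrum the count of 2 became 4 with all groups in 1 fit (adding Ifit1 and Tap1), 3 with the stricter filter or the trend and robust prior (adding Ifit1, adjusted p 0.0495 and 0.0443) and 0 without arrays with high Gh, an alternative added after seeing the data that leaves 2 arrays a group (Ifitm3 0.52, Gbp2 0.84). For R26P cerebellum the 2 became 1 with no filter and 0 with the replicate block. The ret minus R26P difference had 1 call with all groups in 1 fit (Cd74) and 1 with the replicate block (Ifit1), against 0. Wild-type regions had 1 with the replicate block (Cd74), against 0. For R26P control regions, no filter, averaged probe sets, a fit over all probe sets, renewed quantile normalization and all groups in 1 fit gave 0, and the replicate block 2, against 1. The block changed no member's call in the R26P cerebrum effect, the difference of R26P effects or R26P mutant regions. Leaving out 1 replicate at a time gave 3 to 4 calls in ret mutants, 2 to 3 in R26P cerebrum, 0 to 2 in R26P cerebellum, 0 to 1 for the ret minus R26P difference and 0 to 0 for R26P control regions.

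Values near 0 changed sign. Without arrays with high Gh the ret change of Bst2 was -0.055; with averaged probe sets the ret minus R26P difference of Gbp2 was 0.039; with renewed quantile normalization the wild-type region differences of Ifit3 and Tap1 were 0.0077 and 0.013, and those of Ifitm3, Gbp2 and Tap1 in R26P mutants -0.026, -0.021 and -0.015. With 1 replicate left out, the ret change of Ifit3 ran from -0.11 to 0.30; in R26P cerebrum Irf7 ran from -0.29 to 0.32 and Cd74 from -0.37 to 0.43; in R26P cerebellum Irf7 ran from -0.23 to 0.16 and Ifit3 from -0.023 to 0.34. The difference of R26P effects for Irf7 ran from -0.29 to 0.059, the ret minus R26P difference for Gbp2 from -0.13 to 0.14, wild-type Ifit3 from -0.086 to 0.045 and Tap1 from -0.10 to 0.14, and R26P mutant region differences from -0.020 to 0.059 for Gbp2, -0.038 to 0.057 for Tap1 and -0.27 to 0.019 for Cd74. Xaf1, called higher in R26P cerebrum, was not near 0 but changed direction too. With averaged probe sets its change there was -0.16. The cause of these shifts was not tested.

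Over all genes, counts moved by more than 1.5 times with no filter (ret 1229, R26P cerebrum 1390 and R26P cerebellum 1081, against 1870, 2097 and 1758) and with the replicate block (ret 987 and R26P cerebrum 1278), and without arrays with high Gh (ret 919 and R26P cerebrum 237). With 1 array or animal left out they ran from 1153 to 1931 for ret, 1387 to 1945 and 1117 to 1572 for R26P cerebrum and cerebellum, 127 to 611 for ret minus R26P (against 377), 5 to 15 for the difference of R26P effects (against 13), 0 to 1 for wild-type regions (against 238), 9 to 72 for R26P control regions (against 132) and 0 to 15 for R26P mutant regions (against 0). The difference of R26P effects had 6 with no filter, 0 with the stricter filter, 4 with averaged probe sets and 29 with the replicate block; ret minus R26P had 177 with no filter, 596 with all groups in 1 fit and 239 with the block; wild-type regions had 58 with no filter, 151 with the stricter filter and 135 with the block; R26P control regions had 47 with no filter, 68 with averaged probe sets and 475 with the block; and R26P mutant regions had 1 with no filter and 6 with all groups in 1 fit. Of the 21, 10 and 6 genes of the pathway lists called in ret, R26P cerebrum and R26P cerebellum mutants, 7, 1 and 2 were called with no filter and 6, 2 and 2 with the replicate block.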

Other observations

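R26P mutant 4 had the highest signals of its group for Cxcl10, at 9.33 in cerebellum against 5.75 to 7.33 in the other mutants, and 8.53 in cerebrum against 5.80 to 7.34. It also had the highest Zbp1, at 6.38 in cerebellum against 3.99 to 4.07, and 5.41 in cerebrum against 3.78 to 4.05. Oas2, which was lower in mutants as a group, was 9.28 in cerebellum and 8.61 in cerebrum of that animal, nearest to the controls.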
